A study of Mus musculus with 3 samples.

Results

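The NF-kB factors and their feedback and target genes were followed across the cell classes of LLC1 tumours in mouse bone. The set held 10 genes, found by symbol among the 55357 gene identifiers of the count matrices, and each symbol matched 1 identifier. They were the ligand Tnf, the Rel family factors Nfkb1, Nfkb2, Rela and Relb, the feedback genes Nfkbia, Nfkbiz and Tnfaip3, and the targets Icam1 and Birc3. LLC1 is a mouse Lewis lung carcinoma line, and 1000000 cells in 10 µL were placed in the tibia of 8-week-old mice. Tumours were collected on day 14. Their cells were read by droplet-based 3' RNA sequencing, in which each captured RNA molecule is counted once by its unique molecular identifier (UMI). The hosts were WT, DMP1-Cre Mfn2-/- or DMP1-Cre Rhot1-/-, called the wild-type, Mfn2 and Rhot1 libraries here. Mfn2 encodes mitofusin 2, which fuses mitochondrial outer membranes, and Rhot1 encodes Miro1, which links mitochondria to motor proteins.

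Each genotype was 1 library made from tumours of 3 mice mixed in equal parts, and cells could not be assigned to mice. No difference between genotypes therefore has a replicate check, no test was made, and the ranges in parentheses are exact 95% intervals of counting error. They treat UMIs as independent, and do not cover variation between cells, mice or preparations. DMP1-Cre acts in osteocytes, no Cre is named for the wild-type mice, so effects of the Cre transgene and of the deleted gene cannot be told apart. The tumour cells come from the injected line and not from the host, and dead cells were sorted out before capture. Both knockout comparisons use the same wild-type library, so their values are not independent of each other.

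NF-kB is a family of dimeric transcription factors that rest in the cytoplasm, held there by inhibitor proteins of the IkB family. Signals such as tumour necrosis factor activate the IKK kinases, IkB is degraded, and the dimers enter the nucleus. Among the genes they switch on are their own inhibitors, which makes Nfkbia and Tnfaip3 common readouts of recent activity, and in tumours the pathway is known for cytokine, adhesion and survival genes of both cancer and myeloid cells.

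On mm10 (GENCODE M21 annotation), all 10 were protein-coding genes on chromosomes 3, 7, 9, 10, 12, 16, 17 and 19. Nfkbia (ENSMUSG00000021025), for example, lay at chr12:55489410-55492647 on the minus strand, Tnfaip3 (ENSMUSG00000019850) at chr10:19000910-19015657 on the minus strand and Tnf (ENSMUSG00000024401) at chr17:35199381-35202007 on the minus strand. Nfkb1 overlapped the gene model Gm43430 on its own strand, while Nfkb2 and Icam1 overlapped genes only on the opposite strand. Whether the counting used strand was not given in the sources used here, so reads from these overlaps cannot be told apart.

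Promoter sequence is shown for 5 members, because these inhibitors, targets and 1 factor are described one by one below. RefSeq windows on GRCm38.p6 reached from 250 bases before to 50 bases after each annotated start, and 7 of the 10 members had at least 1 window (Tnf, Nfkbia, Nfkb2, Rela, Tnfaip3, Icam1 and Birc3). The kappaB consensus was searched on both strands with overlapping matches allowed. It was found in windows of 3 of these 7 members (Nfkbia, Nfkb2 and Tnfaip3), against 2581 of 27025 genes with a window (9.55%) and 2779 of 32851 windows (8.46%). The first Nfkb2 start had 3 match positions (beginning 39, 38 and 11 bases before the start, the first 2 overlapping), the first Tnfaip3 start had 2 (125 and 12 bases before) and Nfkbia had 1 (29 bases before). Below are the 250 bases before the start, read 5′ to 3′ on the gene's strand, with kappaB matches in capitals: Nfkbia at chr12:55492648-55492897 (minus strand), Tnfaip3 at chr10:19015411-19015660 (minus), Nfkb2 at chr19:46304487-46304736 (plus), Tnf at chr17:35202008-35202257 (minus) and Icam1 at chr9:21015690-21015939 (plus).
Nfkbia: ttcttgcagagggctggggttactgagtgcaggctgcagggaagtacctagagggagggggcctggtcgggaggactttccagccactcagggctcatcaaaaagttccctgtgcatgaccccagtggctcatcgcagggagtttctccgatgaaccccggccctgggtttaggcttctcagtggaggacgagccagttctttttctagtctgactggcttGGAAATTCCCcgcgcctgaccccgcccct
Tnfaip3: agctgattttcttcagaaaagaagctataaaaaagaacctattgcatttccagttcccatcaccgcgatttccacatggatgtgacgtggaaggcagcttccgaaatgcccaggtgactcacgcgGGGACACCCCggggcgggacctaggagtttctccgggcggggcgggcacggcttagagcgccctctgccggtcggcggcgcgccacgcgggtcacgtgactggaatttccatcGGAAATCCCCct
Nfkb2: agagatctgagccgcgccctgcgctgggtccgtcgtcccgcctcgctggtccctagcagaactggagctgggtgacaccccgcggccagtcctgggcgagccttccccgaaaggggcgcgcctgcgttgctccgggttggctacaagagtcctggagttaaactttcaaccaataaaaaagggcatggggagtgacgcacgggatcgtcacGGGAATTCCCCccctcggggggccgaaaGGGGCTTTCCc
Tnf: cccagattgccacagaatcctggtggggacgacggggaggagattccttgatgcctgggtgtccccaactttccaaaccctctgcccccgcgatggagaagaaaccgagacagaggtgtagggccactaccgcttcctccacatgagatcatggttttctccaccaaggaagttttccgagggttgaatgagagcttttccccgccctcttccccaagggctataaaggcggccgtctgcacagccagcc
Icam1: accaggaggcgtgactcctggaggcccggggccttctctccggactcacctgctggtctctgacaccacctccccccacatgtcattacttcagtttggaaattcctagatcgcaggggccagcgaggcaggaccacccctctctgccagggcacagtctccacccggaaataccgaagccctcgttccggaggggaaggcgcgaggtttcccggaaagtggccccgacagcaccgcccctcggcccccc
The Tnf and Icam1 windows held no match to these letters, which says nothing of sites elsewhere or of binding. A match is a description of sequence and not a measured site.

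There were 9393 barcodes from wild-type hosts, 10016 from Mfn2 and 9534 from Rhot1 hosts, with between 112088653 and 118223251 UMIs per library. Of these 9022, 9570 and 9135 were kept as cells. Between 20 and 35 barcodes were shared by any pair of libraries. Neither deleted gene was at its lowest in its own knockout library: Mfn2 stood at 16.2, 20.3 and 20.7 CPM (UMIs per 1000000) over all kept cells and Rhot1 at 23.1, 23.7 and 25.2, in the order wild type, Mfn2, Rhot1. A 3' tag can lie outside a deleted part, and Dmp1 had only 9, 6 and 3 UMIs, so the genotypes cannot be checked from them. Clusters were named from marker genes. Tumour-like cells, recognised by Krt8, Krt18 and Hmga2 among others, numbered 3266, 5284 and 4953. The myeloid classes were macrophage-like (1370, 1234 and 1041 cells), monocyte-like (769, 594 and 679) and neutrophil-like (701, 920 and 476). Smaller classes were T cell-like (298, 105 and 159), NK cell-like (115, 36 and 62), dendritic cell-like (177, 56 and 97), B cell-like (44, 15 and 19) and erythroid-like (204, 223 and 299). The last was shallow, and its leading genes also included the muscle genes Sln and Acta1 and the genes Rbp4 and Cda that led a tumour-like cluster. An osteoclast-like cluster of 26 cells was too small to describe, and no cluster was named osteocyte-like. Neutrophil-like cells were shallow too, with median depths of 1153, 1072.5 and 1291.5 UMIs against 19340.5, 15965 and 17067 in tumour-like cells. Unnamed clusters held 22.8%, 11.5% and 14.8% of kept cells, most of them with tumour markers.

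Rela and Nfkb2 were spread over all classes, while the feedback genes, the targets and Relb differed widely between classes. Levels are UMIs per 1000000 UMIs of a class (CPM), given here as the mean ± SD over the 3 libraries, so that the SD includes any difference between genotypes. Nfkbia, which encodes IkB alpha, was highest in neutrophil-like cells at 1358 ± 620 CPM, and its lowest library there (795) lay above the highest monocyte-like library (782). From monocyte-like cells (600 ± 170) down to NK cell-like cells (297 ± 151) the ranges of neighbouring classes overlapped, so no order is given among those 7 classes. Nfkbiz, which encodes the nuclear protein IkB zeta, was likewise highest in neutrophil-like cells (396 ± 227), with no overlap with the next class, monocyte-like cells (123 ± 48.3).

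Tnfaip3 encodes A20, a ubiquitin-editing enzyme that shuts off signalling to IKK. It was highest in T cell-like (86.7 ± 21.3), NK cell-like (76.0 ± 39.7) and neutrophil-like cells (68.4 ± 44.4), whose ranges overlapped, and stood at 5.10 ± 1.47 in tumour-like cells. Birc3 encodes the ubiquitin ligase cIAP2 of the TNF receptor complex. Its mean was highest in neutrophil-like cells (86.6 ± 29.8), with a range that overlapped that of B cell-like cells (61.8 ± 58.3). In tumour-like cells Birc3 stood at 5.32 ± 0.466. Icam1, the adhesion molecule that binds leukocyte integrins, ranged from 73.9 ± 16.5 in dendritic cell-like cells to 18.6 ± 16.2 in neutrophil-like cells among the leukocytes, and stood at 0.504 ± 0.190 in tumour-like cells. Erythroid-like cells held 0 Icam1 UMIs in all 3 libraries, where 3 UMIs would have given 3.67, 4.61 and 4.06 CPM.

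Tnf, the ligand, was a leukocyte transcript. Its ranges overlapped from neutrophil-like (31.2 ± 20.5 CPM) through T cell-like (24.4 ± 15.1), macrophage-like (17.1 ± 5.02) and monocyte-like cells (13.4 ± 3.56) down to tumour-like cells at 0.228 ± 0.130 by neighbouring pairs, though the extremes were far apart. In the wild-type library 8.03% of macrophage-like cells (6.64 to 9.60) had a Tnf UMI at a median depth of 4536.5 UMIs, against 0.765% of tumour-like cells (0.496 to 1.13) at the larger median depth of 19340.5. The tumour-like share serves as the level that free RNA and class mixing could give.

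The 4 factor genes were found in every class, with Relb and Nfkb1 highest in dendritic cell-like cells. Rela, the p65 subunit with the transactivation domain, ran only from 67.1 ± 26.1 CPM in dendritic cell-like cells to 34.5 ± 8.87 in erythroid-like cells, and every pair of neighbouring classes overlapped. Relb, which partners p52 in the non-canonical branch, was highest in dendritic cell-like cells at 120 ± 47.1, above the range of every other class. Nfkb1, the p105 precursor of p50, was also highest there (166 ± 16.5), with overlapping ranges down to monocyte-like cells (94 ± 15.7) and a gap to macrophage-like cells (58.2 ± 5.5). Nfkb2, the p100 precursor of p52, ranged from 100 ± 25.1 in dendritic cell-like to 39.4 ± 7.92 in erythroid-like cells with every neighbouring pair overlapping. The panels of levels by class show the flat profile of Rela beside the steep ones of Nfkbia, Nfkbiz and Tnf.

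**Figure D1:**
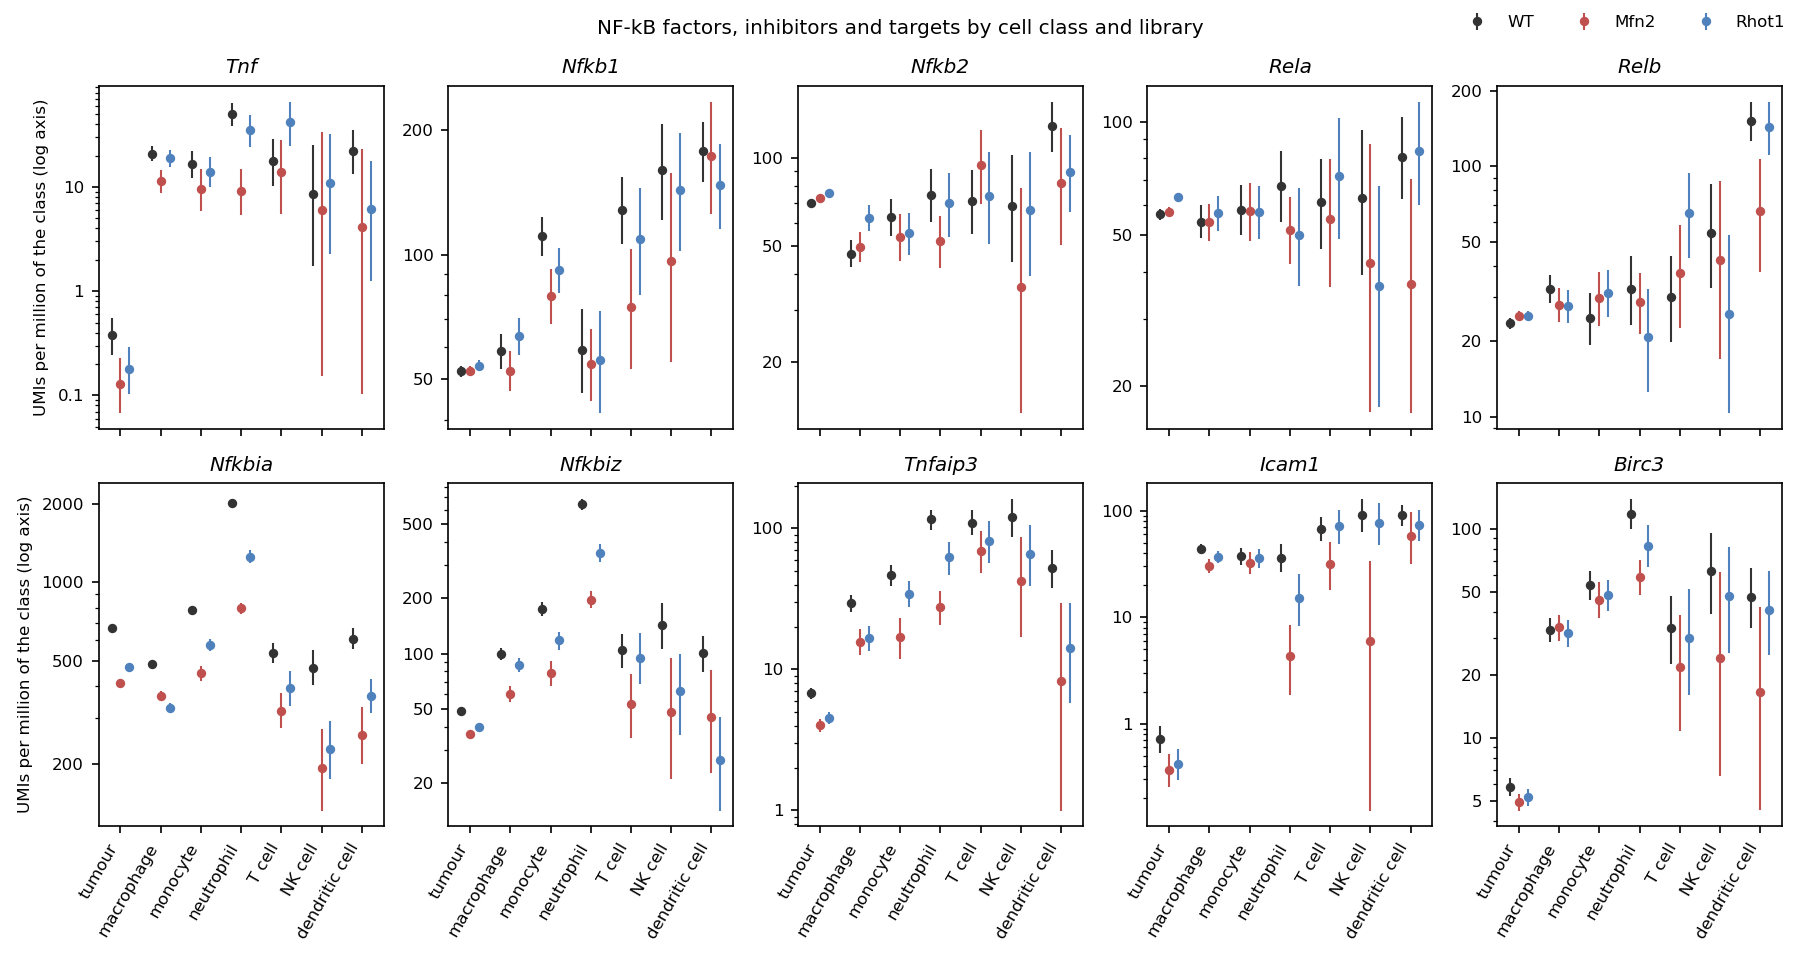
Level of each of the 10 genes (CPM, log axis, scales differ between panels) in 7 cell classes, with 1 point per library and bars for the exact 95% Poisson interval. The wild-type points of Nfkbia stand above both knockout points in all 7 classes, and Tnf and Icam1 are lowest in tumour-like cells.

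Between genotypes, the feedback genes were mostly lower in the knockout libraries, and the factors were mostly level in tumour-like and macrophage-like cells. Among the tumour-like, macrophage-like, monocyte-like and neutrophil-like cells compared here, the counts of lower members were highest in the last. A gene was counted as lower or higher when its ratio to wild type was at a log2 value of 0.32 or more in size (1.25-fold up or 0.801-fold down), among genes at a mean of 10 CPM or more. In neutrophil-like cells of the Mfn2 library 8 of the 10 members were lower and 0 higher, where 15.8% of all 7658 genes were lower and 37.0% higher. In the Rhot1 library 8 of 10 were lower and 0 higher, against backgrounds of 20% and 25.1%. Among these lower calls, those of Tnf, Rela and Relb in the Rhot1 library and of Rela in the Mfn2 library had intervals that held 1. The members' median log2 ratios were -1.18 and -0.57, and those of all genes 0.18 and 0.04. Rescaling these cells by median-of-ratios size factors shifted every log2 ratio of the Mfn2 comparison by -0.16.

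In macrophage-like cells 5 of 10 members were lower and 0 higher in the Mfn2 library, against 7.67% and 9.46% of all 7822 genes. In the Rhot1 library 2 were lower and 1 higher, against 5.66% and 12.5%. That lower count ran from 1 to 4 over the processing alternatives, and 1 of 10 higher is near the background. Monocyte-like cells had 5 lower and 0 higher in the Mfn2 library, against 10.9% and 14.7% of 7484 genes, and 3 lower and 1 higher in the Rhot1 library, against 8.58% and 13.7%.

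In tumour-like cells 6 of the 10 members reached the minimum level (the 4 factors, Nfkbia and Nfkbiz). In the Mfn2 library 2 of these were lower and 0 higher, where 3.62% of all 8065 genes were lower and 7.38% higher. In the Rhot1 library 1 was lower and 0 higher, against 2.37% and 8.05%. These small counts ran from 1 to 5 and from 0 to 4 over the alternatives, the upper ends with no minimum level.

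**Figure D2:**
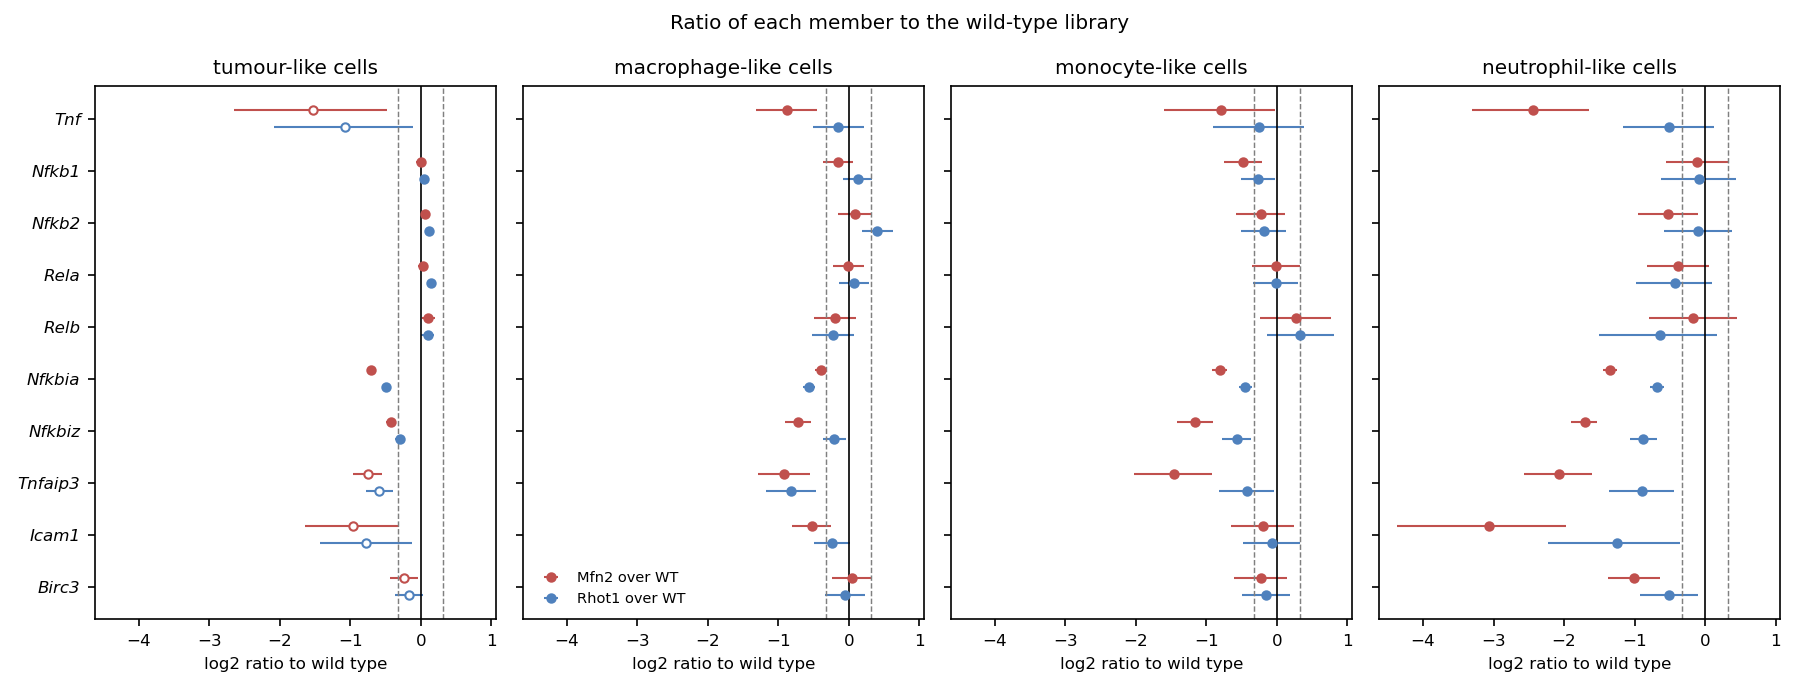
Log2 ratio of each gene's CPM to the wild-type library in 4 cell classes, with bars for the exact 95% conditional interval of counting error; open points are genes under the mean of 10 CPM and dashed lines mark 0.32 in either direction. In neutrophil-like cells every point lies left of 0, and Icam1 and Tnf of the Mfn2 library lie farthest left, at -3.07 and -2.44.

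The ligand Tnf was lower in the Mfn2 library in each of the myeloid classes, and less clearly so in the Rhot1 library. Neutrophil-like cells held 49.6 CPM of Tnf in wild type (63 UMIs), 9.17 in Mfn2 (17 UMIs) and 34.9 in Rhot1 (32 UMIs). The ratios to wild type were 0.185 (0.101 to 0.32) and 0.704 (0.445 to 1.09), the second with an interval that held 1. Of the 32 UMIs of the Rhot1 library 12 came from 1 cell. Without the cell with most UMIs in each library the log2 ratio was -1.04 instead of -0.51, whereas it was 0.19 at Leiden resolution 2 and 0.61 with the clusters weighted alike. The Mfn2 log2 ratio of -2.44 was -1.35 with the clusters weighted alike and -3.18 in thinned cells.

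Macrophage-like cells held 20.9, 11.4 and 18.9 CPM of Tnf in that same order of libraries, with ratios of 0.544 (0.402 to 0.729) and 0.9 (0.7 to 1.16). Monocyte-like cells held 16.6, 9.59 and 14.0 CPM, with ratios of 0.576 (0.328 to 0.979) and 0.839 (0.534 to 1.31). The Mfn2 library was thus the lowest of the 3 in both classes. T cell-like cells went another way, with 17.8, 13.8 and 41.7 CPM from 16, 7 and 18 UMIs, and a Rhot1 ratio of 2.34 (1.13 to 4.90).

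The factors differed little in tumour-like cells, and more in some other classes. In tumour-like cells, where UMIs were most plentiful, Nfkb1 stood at 52.3, 52.3 and 54.0 CPM, Nfkb2 at 70.2, 72.8 and 75.6, Rela at 56.8, 57.7 and 63.0, and Relb at 23.6, 25.3 and 25.3. All 8 of their ratios to wild type lay between 1.00 and 1.11, and the largest was that of Rela in the Rhot1 library (1.11, 1.06 to 1.16). None of these passed the 0.32 threshold.

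In macrophage-like cells Nfkb2 stood at 47.0, 49.6 and 62.2 CPM, and its Rhot1 ratio of 1.32 (1.14 to 1.54) was the only higher call among the members in that class. The other factor ratios in macrophage-like cells lay between 0.856 and 1.09, each with an interval that held 1. In monocyte-like cells Nfkb1 was lower in the Mfn2 library (111, 79.4 and 91.8 CPM, ratio 0.718, 0.594 to 0.866), and Relb stood at 24.8, 29.7 and 31.2 CPM with Rhot1 ratio 1.26 (0.910 to 1.75).

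In neutrophil-like cells the factors rested on 19 to 101 UMIs each. Nfkb1 stood at 59.0, 54.5 and 55.6 CPM, with ratios of 0.923 (0.678 to 1.26) and 0.942 (0.647 to 1.36). Nfkb2 stood at 74.8, 51.8 and 69.8 CPM, and its Mfn2 ratio was 0.692 (0.516 to 0.929). Rela stood at 67.7, 51.8 and 50.2 CPM, with ratios of 0.765 (0.566 to 1.04) and 0.741 (0.506 to 1.07). Rela and Relb (32.3, 28.6 and 20.7 CPM) passed the size threshold in 1 or both comparisons while their intervals held 1, so these calls were within counting error. The Mfn2 log2 ratio of Rela, -0.39, was 0.07 with the clusters weighted alike. The Rhot1 log2 ratio of Relb, -0.64, was -0.20 with each library clustered on its own. In T cell-like cells Nfkb1 had 115, 38 and 47 UMIs, with ratios of 0.584 (0.394 to 0.850) and 0.849 (0.592 to 1.20). Relb had 27, 19 and 28 UMIs there, with ratios of 1.24 (0.654 to 2.32) and 2.16 (1.22 to 3.80). The Nfkb2 and Rela intervals of T cell-like cells and all factor intervals of NK cell-like cells held 1.

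Nfkbia was lower in both knockout libraries in each of the classes described except erythroid-like cells. Neutrophil-like cells stood at 2022 CPM (wild type, 2569 UMIs), 795 (Mfn2, 1474 UMIs) and 1257 (Rhot1, 1153 UMIs), giving ratios of 0.393 (0.368 to 0.419) and 0.622 (0.58 to 0.667). Tumour-like cells stood at 665, 408 and 472 CPM, with ratios of 0.613 (0.605 to 0.622) and 0.710 (0.7 to 0.719). Macrophage-like cells stood at 484, 366 and 327 CPM, with ratios of 0.757 (0.717 to 0.799) and 0.676 (0.639 to 0.714). The tumour-like cells of the libraries lay in different clusters: cluster 1, at 432 CPM of Nfkbia in wild type, held 10.8%, 32.5% and 24.0% of them, and cluster 4, at 986 CPM, held 24.3%, 18.1% and 9.69%. The Rhot1 ratio of the class, 0.710, lay below the ratio within each of its 6 clusters, which ran from 0.772 to 1.35. The wild-type library was the highest in each of the 3 classes, while the order of the 2 knockout libraries differed between macrophage-like cells and the others.

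Monocyte-like cells held 782, 446 and 574 CPM of Nfkbia, with ratios of 0.570 (0.528 to 0.614) and 0.733 (0.687 to 0.782). T cell-like cells held 535, 321 and 391 CPM, with ratios of 0.600 (0.5 to 0.719) and 0.732 (0.610 to 0.874). NK cell-like cells held 470, 193 and 228 CPM, and dendritic cell-like cells 608, 259 and 365. Erythroid-like cells ran the other way at 100, 166 and 168 CPM, and B cell-like cells, with 84, 4 and 17 UMIs, stood at 532, 232 and 235.

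The difference in neutrophil-like cells was also present at equal depth. With every cell thinned to 1000 UMIs, which left 452, 529 and 359 cells, 69.2%, 47.4% and 51.0% of them had a Nfkbia UMI, against 71.2%, 56.4% and 61.8% of all neutrophil-like cells unthinned. In erythroid-like cells, the class with least Nfkbia, the thinned shares were 10.2%, 17.6% and 16.3%. The tumour-like and macrophage-like differences were smaller in some alternatives. The Rhot1 log2 ratio in tumour-like cells, -0.49, was -0.18 with the clusters weighted alike, and the Mfn2 log2 ratio in macrophage-like cells, -0.40, was -0.22 with cells of 500 or more genes and at most 10% mitochondrial UMIs.

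Nfkbiz was lower than wild type in the myeloid classes too, although in macrophage-like cells the Mfn2 and not the Rhot1 library was lowest. Neutrophil-like cells held 642, 196 and 350 CPM (816, 364 and 321 UMIs), with ratios of 0.306 (0.269 to 0.346) and 0.545 (0.478 to 0.621). Monocyte-like cells held 174, 78.1 and 118 CPM, with ratios of 0.448 (0.375 to 0.534) and 0.675 (0.585 to 0.777). Macrophage-like cells held 99.5, 60.5 and 86.3 CPM, with ratios of 0.608 (0.534 to 0.691) and 0.868 (0.774 to 0.972). The Mfn2 library was the lowest in all 3 of these myeloid classes.

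Tumour-like cells held less Nfkbiz, at 48.8, 36.5 and 39.8 CPM, with ratios of 0.749 (0.713 to 0.786) and 0.816 (0.778 to 0.856). The Rhot1 ratio was not past the threshold, and within clusters it was 0.809 (0.735 to 0.891) in cluster 0 and between 0.954 and 1.17 in clusters 1, 2, 4, 8 and 16, each with an interval that held 1. With the clusters weighted alike its log2 value of -0.29 was -0.01. The Mfn2 log2 ratio there, -0.42, was -0.28 with doublets kept and -1.20 with each library clustered on its own. In thinned neutrophil-like cells 53.8%, 23.1% and 28.7% had a Nfkbiz UMI, against 53.1%, 29.5% and 34.5% unthinned. The thinned shares of erythroid-like cells were 0.781%, 2.11% and 1.36%.

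Tnfaip3 was lower in both knockout libraries in all 4 classes compared, though in tumour-like cells it lay under the minimum level. Neutrophil-like cells held 116, 27.5 and 62.2 CPM (147, 51 and 57 UMIs), with ratios of 0.238 (0.169 to 0.329) and 0.537 (0.389 to 0.734). Monocyte-like cells held 46.5, 16.9 and 34.5 CPM, with ratios of 0.363 (0.246 to 0.526) and 0.742 (0.565 to 0.972). Macrophage-like cells held 29.5, 15.6 and 16.7 CPM, with ratios of 0.530 (0.411 to 0.680) and 0.566 (0.443 to 0.721). Among their clusters, cluster 5 had ratios of 0.363 (0.261 to 0.498) and 0.497 (0.357 to 0.683). In cluster 10 they were 1.23 (0.708 to 2.09) and 0.773 (0.411 to 1.40). In cluster 13 they were 0.641 (0.302 to 1.29) and 0.824 (0.471 to 1.45), so the intervals of clusters 10 and 13 held 1. Over each of these myeloid classes as a whole the wild-type library was the highest, and in tumour-like cells the levels were 6.78, 4.01 and 4.51 CPM.

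The targets Icam1 and Birc3 were both lower in neutrophil-like cells. Icam1 in neutrophil-like cells rested on 46, 8 and 14 UMIs, or 36.2, 4.31 and 15.3 CPM, with ratios of 0.119 (0.0486 to 0.255) and 0.422 (0.214 to 0.781). Its Rhot1 log2 ratio, -1.25, was -0.24 at Leiden resolution 2, and its Mfn2 log2 ratio, -3.07, was -2.15 with a pseudocount of 5 CPM. Macrophage-like cells held 43.4, 30.1 and 36.7 CPM, with an Mfn2 ratio of 0.693 (0.573 to 0.836) that was a log2 value of -0.19, under the threshold, in thinned cells. Monocyte-like cells were close to level at 37.3, 32.4 and 35.6 CPM, with both intervals holding 1. In T cell-like cells Icam1 rested on 61, 16 and 31 UMIs, with ratios of 0.464 (0.25 to 0.814) and 1.06 (0.662 to 1.65). In NK cell-like cells it rested on 32, 1 and 21 UMIs, with ratios of 0.0662 (0.00162 to 0.396) and 0.847 (0.464 to 1.51), so the Mfn2 library was the low one in both classes.

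Birc3 in neutrophil-like cells stood at 118, 58.8 and 82.9 CPM (150, 109 and 76 UMIs), with ratios of 0.498 (0.385 to 0.641) and 0.702 (0.526 to 0.931). The Rhot1 log2 ratio of -0.51 was -0.31 with each library clustered on its own. In macrophage-like cells it was level at 32.8, 33.7 and 31.6 CPM, with ratios of 1.03 (0.846 to 1.24) and 0.963 (0.792 to 1.17). The intervals of the neutrophil-like and macrophage-like Mfn2 ratios did not overlap. In dendritic cell-like cells Birc3 had 38, 4 and 20 UMIs, with ratios of 0.349 (0.0905 to 0.970) and 0.865 (0.477 to 1.52).

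Dendritic cell-like cells are named apart because they held the most Relb and Nfkb1, although from few cells. Relb stood at 151, 65.9 and 143 CPM (122, 16 and 70 UMIs), with ratios of 0.435 (0.241 to 0.735) and 0.943 (0.692 to 1.28), so the Mfn2 library was the low one. Nfkb1 stood at 178, 173 and 147 CPM, with ratios of 0.974 (0.674 to 1.38) and 0.827 (0.614 to 1.11). Rela had 65, 9 and 41 UMIs, with ratios of 0.459 (0.201 to 0.927) and 1.04 (0.684 to 1.56). Nfkb2 had 104, 20 and 44 UMIs, with ratios of 0.638 (0.374 to 1.04) and 0.695 (0.477 to 0.998). Nfkbia ratios were 0.426 (0.323 to 0.555) and 0.600 (0.503 to 0.714). Tnfaip3 had 42, 2 and 7 UMIs, with ratios of 0.158 (0.0185 to 0.607) and 0.274 (0.104 to 0.615).

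Within classes, Nfkbia varied widely between clusters. Among tumour-marker clusters, cluster 2, which was led by mitotic genes such as Ccnb2 and Cdc20, was lowest at 291, 266 and 250 CPM. Cluster 8, led by Cxcl1 and Sgk1, stood at 1196, 599 and 961. Cluster 4, led by the hypoxia-responsive genes Adm, Ndrg1 and Egln3, stood at 986, 609 and 806.

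The largest Nfkbia level among the tumour-marker clusters was that of cluster 11, at 1346, 949 and 1139 CPM. It was left unnamed because its leading genes held the stromal markers Lum and Dcn and no tumour marker, and it held 599, 73 and 77 cells. Cluster 3, unnamed for the same reason and led by Dpt and Cp, was level at 440, 443 and 424 CPM. Cluster 16, led by the interferon-induced genes Rsad2 and Ifit1, stood at 501, 427 and 674, the Rhot1 library being the highest there (ratio 1.35, 1.24 to 1.46). The lower Nfkbia of the knockout libraries was thus not a property of every tumour-marker cluster. With clusters 3, 9 and 11 added to the tumour-like cells, the ratios over all were 0.585 (0.578 to 0.593) and 0.670 (0.662 to 0.678). The Rhot1 ratio of 0.670 lay below that within each of these clusters, which ran from 0.748 in cluster 9 to 1.35 in cluster 16. Cluster 11 made up 11.7%, 1.18% and 1.27% of these cells, so the ratios over all mix the shares of clusters with the levels within them.

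Among macrophage-like cells, cluster 5, led by Arg1, Ppbp and Pf4, held 656, 404 and 424 CPM of Nfkbia, and of Nfkbiz 101, 44.7 and 83.6. Cluster 10, led by Cxcl9 and MHC class II genes, held 349, 318 and 309 CPM of Nfkbia, and its ratios of 0.910 (0.797 to 1.04) and 0.885 (0.778 to 1.00) had intervals that held 1. Cluster 13, led by Ccl8, Mrc1 and Cbr2, held 298, 302 and 230. The 3 clusters therefore differed in their Nfkbia ratios, and the Mfn2 interval of cluster 5 (0.576 to 0.658) did not overlap those of the others. Nfkbiz stood at 91.1, 88.4 and 82.9 CPM in cluster 10 and at 107, 81.3 and 91.0 in cluster 13. Cluster 5 made up 57.2%, 68.7% and 50.3% of macrophage-like cells. Neutrophil-like cells were nearly all cluster 6, with Nfkbia at 2221, 810 and 1346 CPM, and the 25, 11 and 18 cells of the immature cluster 22, led by Camp, Ngp and Ltf, stood at 335, 370 and 325.

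**Figure D3:**
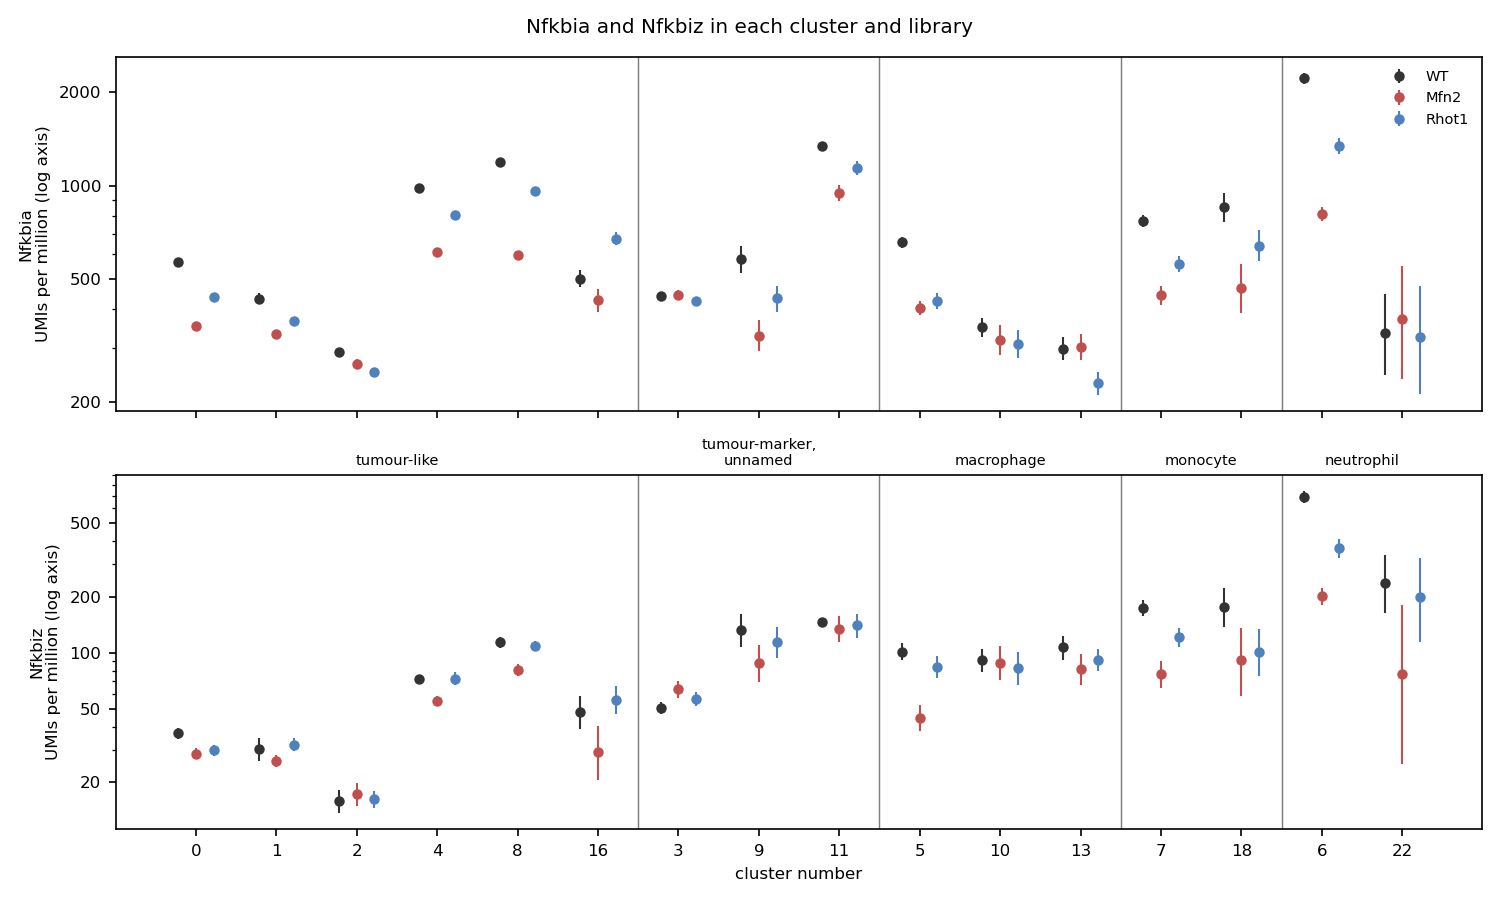
Nfkbia (top) and Nfkbiz (bottom) in CPM of each cluster (log axes), with 1 point per library and exact 95% Poisson bars; vertical lines separate the classes. Nfkbia runs from 230 CPM in cluster 13 to 2221 in cluster 6, and the 3 libraries lie together in clusters 3, 10 and 22.

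Macrophage-like cells with a Tnf UMI carried more Nfkbia and Nfkbiz than those of the same library without one. In wild-type macrophage-like cells Nfkbia stood at 799 CPM in the 110 cells with a Tnf UMI and 449 in the 1260 without, a ratio of 1.78 (1.62 to 1.95). The same ratio in the knockout libraries was 1.28 (1.07 to 1.52) for Mfn2 and 1.40 (1.23 to 1.59) for Rhot1. For Nfkbiz the ratios were 2.20 (1.82 to 2.65), 2.14 (1.48 to 3.00) and 2.07 (1.66 to 2.57). For Rela they were 0.966, 0.883 and 0.696, each with an interval that held 1. Relb was the exception among the factors, with a wild-type ratio of 1.76 (1.21 to 2.5) and ratios of 1.53 (0.796 to 2.70) and 1.06 (0.618 to 1.71) in the others.

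Cells with a Tnf UMI were deeper, at medians of 5834.5, 5601.5 and 6373 UMIs against 4388, 4173.5 and 5117 in macrophage-like cells, and the part of depth in these ratios was not tested. In monocyte-like cells, where wild-type depths were closer (3881 against 3548), the Nfkbia ratios were 2.07 (1.82 to 2.35), 1.47 (1.10 to 1.93) and 1.21 (0.972 to 1.5), and the Tnfaip3 ratios 3.54 (2.22 to 5.47), 3.04 (0.783 to 8.55) and 2.31 (1.07 to 4.46). In wild-type neutrophil-like cells the 33 cells with a Tnf UMI had 4903 CPM of Nfkbia against 1899 in the 668 others, a ratio of 2.58 (2.26 to 2.94), and 250 CPM of Icam1 against 27.1, a ratio of 9.23 (4.46 to 18). The other libraries had few such cells (11 and 18), with Nfkbia ratios of 1.44 (1.03 to 1.96) and 1.58 (1.25 to 1.98), and Icam1 had 0 UMIs in the 18 cells of the Rhot1 library. For Tnfaip3 the neutrophil-like ratios came to 2.66 (1.45 to 4.55) in wild type, 1.00 (0.0249 to 5.86) in the Mfn2 and 3.73 (1.61 to 7.69) in the Rhot1 library. Nfkbiz was less clear there, with ratios of 1.89 (1.43 to 2.46), 0.841 (0.307 to 1.85) and 1.25 (0.743 to 1.99). The neutrophil-like cells without a Tnf UMI (668, 909 and 458 cells) held 1899, 788 and 1223 CPM of Nfkbia. They were nearly the whole class, so these values nearly repeat the class levels. The part of Tnf in the lower Nfkbia was not tested.

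**Figure D4:**
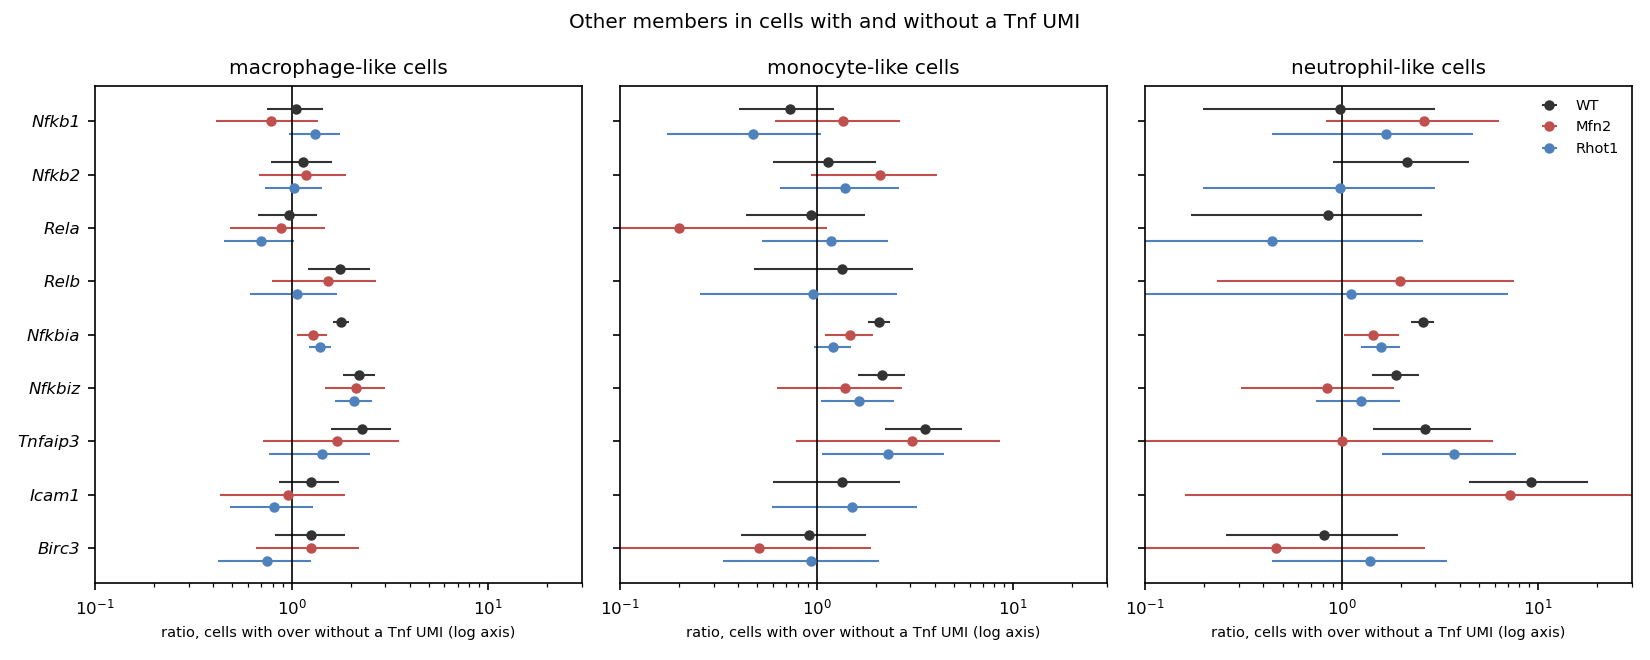
Ratio of each other member between cells with and without a Tnf UMI (log axis), in 3 myeloid classes and 3 libraries, with exact 95% conditional bars that cover counting error only; genes at 0 UMIs in the cells with Tnf have no point, and bars running past the axis are cut. Nfkbia and Nfkbiz of macrophage-like cells lie right of 1 in all 3 libraries, from 1.28 to 2.20.

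The rest of the pathway was read from gene lists at the same threshold. In neutrophil-like cells the shares of all genes to hold them against were 15.8% lower and 37.0% higher for Mfn2, and 20% lower and 25.1% higher for Rhot1. Receptors and adaptors carry the signal to IKK. In neutrophil-like cells 8 of 16 measured were lower and 2 higher in the Mfn2 library, with Irak2, an adaptor kinase of the interleukin 1 and Toll-like receptors, at 34.0 against 73.2 CPM in wild type (ratio 0.464, 0.332 to 0.646). In the Rhot1 library 5 of 16 were lower and 3 higher, with Irak2 at 45.8 CPM, beside 20% and 25.1% of all genes. The highest ratios of the list were those of Ltbr, the lymphotoxin beta receptor, in the Mfn2 library (1.49, 0.892 to 2.56) and of Tradd, an adaptor of the TNF receptor, in the Rhot1 library (1.39, 0.732 to 2.62). In macrophage-like cells Irak2 stood at 14.1 and 13.9 against 27.8 CPM, while 4 and 2 of 16 were lower and 1 and 1 higher. The shares of all genes there were 7.67% and 5.66% lower and 9.46% and 12.5% higher. In tumour-like cells 0 of 11 were lower in either comparison, and 0 and 1 were higher. The shares of all genes in that class were 3.62% and 2.37% lower and 7.38% and 8.05% higher.

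The IKK and ubiquitin machinery, which degrades IkB, had counts in both directions. In neutrophil-like cells 4 of 13 were lower and 6 higher in the Mfn2 library, and 4 lower and 4 higher in the Rhot1 library, where 37.0% and 25.1% of all genes were higher. The kinase gene Map3k8 was at 45.3 and 58.9 against 103 CPM, and Ikbkb, a catalytic IKK subunit, at 42.1 and 36.0 against 26.8 CPM, the second ratio with an interval that held 1. In tumour-like cells Ikbkb was also the highest ratio of this list, at 38.4 and 40.5 against 30.3 CPM (1.27, 1.20 to 1.34, and 1.33, 1.26 to 1.41).

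Other Rel and IkB proteins had 3 of 6 lower and 1 higher (Mfn2), and 1 lower and 1 higher (Rhot1), in neutrophil-like cells. The Rhot1 counts were near the shares of all genes, 20% lower and 25.1% higher. Nfkbie, which encodes IkB epsilon, stood there at 8.63 and 19.6 against 29.1 CPM (ratios 0.296, 0.154 to 0.546, and 0.674, 0.361 to 1.21). Nfkbil1 had the highest ratios of that list there (1.37, 0.832 to 2.31, and 1.55, 0.872 to 2.78). In macrophage-like cells 3 and 2 of 6 were lower, beside 7.67% and 5.66% of all genes. Rel, which encodes c-Rel, stood there at 40.5 and 41.3 against 56.5 CPM. Other feedback inhibitors had 3 of 10 lower and 1 higher, and 2 lower and 2 higher, in neutrophil-like cells, and the Rhot1 counts were near the shares of all genes. Zc3h12a, which encodes the RNase Regnase-1, stood there at 23.2 and 32.7 against 51.9 CPM, and Tnip1, an A20-binding inhibitor, at 31.3 and 39.3 against 51.9, the Rhot1 ratio of Tnip1 with an interval that held 1. The highest ratios were those of Commd1 in the Mfn2 library (1.29, 0.967 to 1.73) and Pdlim2 in the Rhot1 library (1.36, 0.931 to 1.99).

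Other target genes had more lower than higher values in all 4 classes. In neutrophil-like cells 13 of 21 were lower and 3 higher in the Mfn2 library, and 10 lower and 4 higher in the Rhot1 library. Gadd45b, a stress and survival gene, stood at 272 and 358 against 774 CPM, and Ptgs2, which encodes cyclooxygenase 2, at 291 against 881 CPM in the Mfn2 library (ratio 0.33, 0.297 to 0.366). Nos2, inducible nitric oxide synthase, ran the other way at 104 and 53.4 against 19.7 CPM, with ratios of 5.29 (3.48 to 8.38) and 2.72 (1.65 to 4.59). In macrophage-like cells 11 and 10 of 22 were lower and 2 and 5 higher. The shares of all genes in these cells were 7.67% and 5.66% lower and 9.46% and 12.5% higher. The co-stimulatory gene Cd83 stood at 15.3 and 26.0 against 54.7 CPM. There the chemokine gene Ccl5 was higher at 49.1 and 93.9 against 23.2 CPM, so these targets did not move one way. In monocyte-like cells 15 and 10 of 21 were lower and 1 and 3 higher, beside 10.9% and 8.58%, and 14.7% and 13.7%, of all genes. In tumour-like cells 4 and 6 of 15 were lower and 2 and 0 higher, beside 3.62% and 2.37%, and 7.38% and 8.05%. Among the lower genes of tumour-like cells was the transcription factor gene Irf1, at 15.3 and 19.0 against 28.8 CPM.

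**Figure D5:**
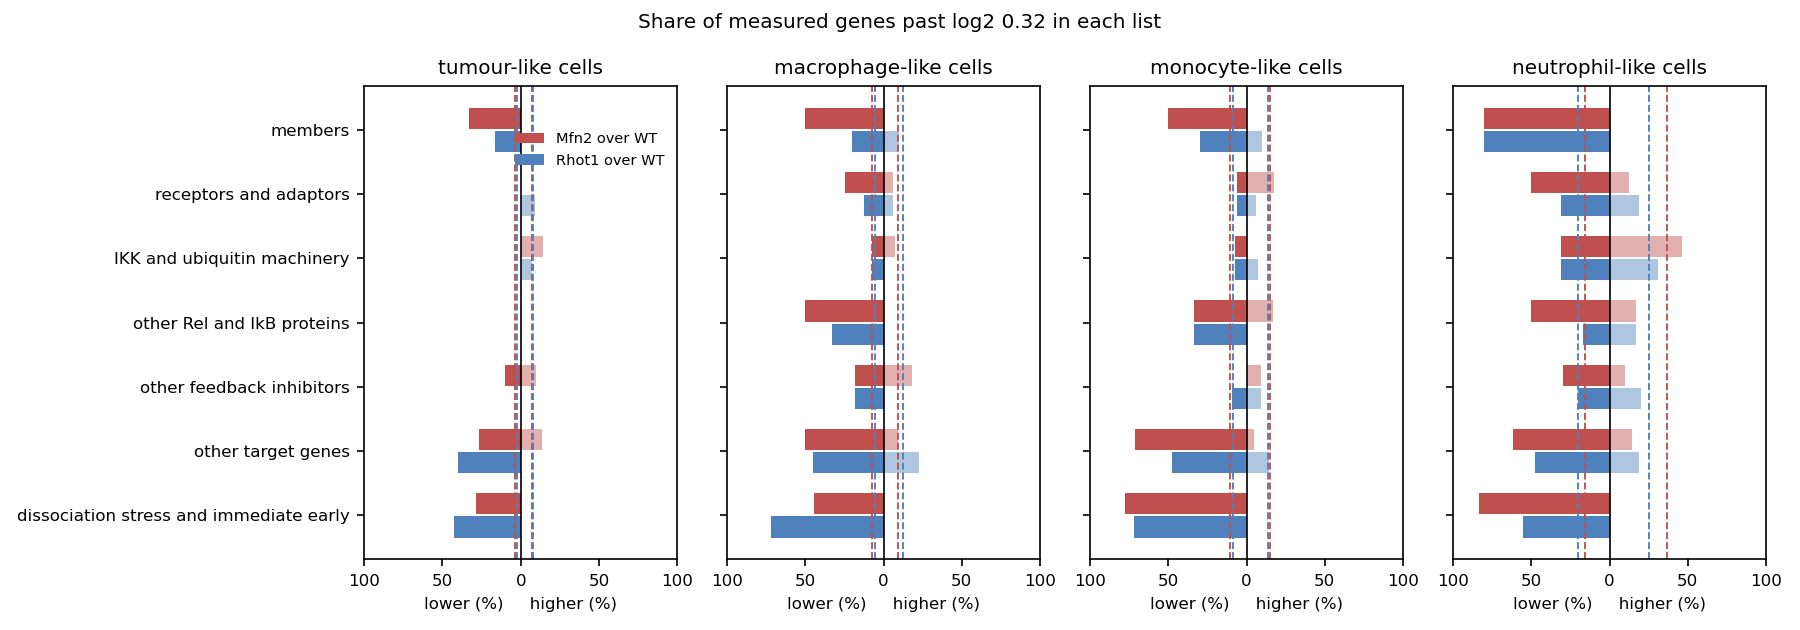
Share of measured genes of each list that were lower (left, full colour) or higher (right, pale) by a log2 value of 0.32 or more, in 4 cell classes; dashed lines mark the share among all genes in the same comparison and direction. In neutrophil-like cells 8 of 10 members are lower in both libraries, and the stress list has 0 higher genes in every panel.

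A list of immediate early and heat shock genes, which cells are known to switch on during enzymatic dissociation, was lower in the same libraries and classes. Tissue had been digested with collagenase at 2 mg/ml for 1 h. Its 18 genes summed to 12417, 8775 and 10871 CPM in neutrophil-like cells, 9223, 6634 and 7107 in monocyte-like cells, 7293, 5582 and 5106 in macrophage-like cells and 4259, 3781 and 3584 in tumour-like cells. Of 18 measured, 15 and 10 were lower in neutrophil-like, 14 and 13 in monocyte-like and 8 and 13 in macrophage-like cells, and of 14 measured in tumour-like cells 4 and 6. The shares of all genes lower were 15.8% and 20%, 10.9% and 8.58%, 7.67% and 5.66%, and 3.62% and 2.37% in the same order. No gene of the list was higher in any of these 8 comparisons. Atf3 in tumour-like cells stood at 41.1 and 33.6 against 104 CPM, and Nr4a1 in neutrophil-like cells at 14.0 and 43.6 against 92.9. Nfkbia and Nfkbiz are themselves readily induced by handling, and the part of dissociation in their lower values was not tested.

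Markers of other cell types gave the following values in the compared classes. The 10 tumour markers summed to 524, 752 and 545 CPM in neutrophil-like cells, with 2 at 0 in each library, and to 136, 198 and 163 in macrophage-like cells. The 11 macrophage markers summed to 929, 627 and 967 CPM in neutrophil-like cells, and the 10 neutrophil markers to 1206, 3208 and 1627 in monocyte-like and 604, 831 and 485 in macrophage-like cells. Erythroid markers in macrophage-like cells summed to 15.6, 380 and 292 CPM over 6 genes (1 at 0 in wild type), and 4 megakaryocyte markers to 368, 818 and 708 (2, 1 and 2 at 0). Stromal markers summed to 1054, 676 and 590 CPM in tumour-like, 170, 94.7 and 83.7 in macrophage-like, 186, 86.8 and 86.3 in monocyte-like and 592, 492 and 296 in neutrophil-like cells, with 0 to 2 of 8 markers at 0 in each. The part of any of these in the results was not tested.

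The genes whose levels most resembled those of 4 members were found over 27 points (9 classes in 3 libraries) by Pearson's r of log2(CPM + 5) among 8513 genes. These points share libraries, depth and the genotype differences above, so r is a description. Tnf was most like the chemokine gene Ccl4 (0.88), then Tnfaip3 (0.86) and Cdc42ep3 (0.85). Nfkbia was most like Nfkbiz (0.87), then Resf1 (0.86) and Arl5b (0.85). Nfkbiz was most like Tax1bp1, Ccnl1 and Ddx6 (0.88 each), and Icam1 most like H2-T23 (0.93), Sp110 (0.92) and Was (0.91). Nfkb1 and Relb were at 0.85 with each other, and Nfkbia and Relb at 0.21.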

How the data were processed

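Each host genotype gave 1 droplet 3' RNA library, pooled from 3 mice. Values in the deposited matrices are unnormalised UMI counts, from Cell Ranger 7.0.0 as the file headers state (per the file headers). Per the submitters' processing notes reads were placed on mm10, while annotation and use of intronic reads were not given in the sources used here. Gene coordinates came from GENCODE M21, in which 52081 of 55357 identifiers were found.

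Barcodes with 300 or more genes and at most 15% mitochondrial UMIs were kept, and Scrublet removed 273, 298 and 224 doublets (2.94%, 3.02% and 2.39%) from wild type, Mfn2 and Rhot1. Counts were scaled to 10000 UMIs per cell, and 2000 variable genes, 30 principal components and 15 neighbours were used with scanpy 1.11.5 and leidenalg 0.10.2 at resolution 1, giving 25 clusters without integration. A cluster took the name of the marker set it scored highest on, at a score of 0.4 or more. It stayed unnamed where its 10 leading genes held more markers of another class, or where it was shallow with no leading marker. The authors' own cell annotation was not used here, and other names would change the classes.

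UMIs were summed per class and library and divided by the class total (CPM). Levels have Poisson, shares Clopper-Pearson and ratios exact conditional 95% intervals, all covering counting error only. With 1 library per genotype no test was made. Ratios carry no pseudocount. Shares were also taken after thinning to 1000 UMIs, which left out 249, 391 and 117 neutrophil-like cells. Only the ratio intervals and the fold calls were tested on simulated data. The simulated class totals were independent Poisson counts, which meet the assumption of the intervals, and the other steps were not simulated.

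The 10 members, the lists, the tests and the naming rule were chosen with earlier results of these data known. Named genes were the members, the 3 genes most like Tnf, Nfkbia, Nfkbiz and Icam1, and genes among the 2 highest and 2 lowest ratios of each list in tumour-, macrophage- and neutrophil-like cells. The text gives only part of these. Promoter sequences are RefSeq's on GRCm38.p6. Alternatives changed the cell filter, doublets, resolution, separate clustering, scaling, cluster weights, the top cell, the pseudocount, thinning, the minimum level, the fold and the unnamed tumour clusters.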

Additional observations from a re-analysis of the deposited data

How the results depend on the processing

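Alternatives were run for tumour-, macrophage- and neutrophil-like cells, and not for monocyte-like cells or smaller classes. Over 27 called ratios and 273 alternatives, 270 kept their sign and 3 reversed. Tnf in neutrophil-like cells of the Rhot1 library went from -0.51 to 0.19 at Leiden resolution 2 and to 0.61 with clusters weighted alike, and Rela in the Mfn2 library from -0.39 to 0.07 with clusters weighted alike. A ratio that kept its sign could still leave its counting interval. Nfkbia in tumour-like cells did so in 7 of 11 alternatives for Mfn2 (log2 -1.15 to -0.52, main -0.70). For Rhot1 it did so in 8 of 11 (-0.58 to -0.18, main -0.49). In the Mfn2 comparison of tumour-like cells the number of lower members, 2, was 1 with doublets kept or a log2 threshold of 0.58, and 5 with no minimum level. In the Rhot1 library it was 1, and became 0 with doublets kept, clusters weighted alike or the 0.58 threshold, and 4 with no minimum. It became 2 at Leiden resolution 0.5, with separate clustering, median-of-ratios scaling, thinning or the unnamed tumour-marker clusters added. In macrophage-like cells the threshold of 0.58 gave 3 instead of 5 (Mfn2) and 1 instead of 2 (Rhot1), and thinning gave 4 (Rhot1). In neutrophil-like cells the threshold of 0.58 gave 6 instead of 8 (Mfn2) and 5 instead of 8 (Rhot1), and thinning gave 10 (Mfn2) and 9 (Rhot1). The cause was not tested, except that a higher threshold and no minimum change the count by construction. Shares of all genes were not recomputed under the alternatives, so these counts have no background beside them. No paired analysis was possible because each genotype has 1 library. Depth limits the neutrophil-like values, where Icam1 rested on 8 to 46 UMIs and Tnf on 17 to 63.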
